A study of Rattus norvegicus with 18 samples.

Results

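The messenger RNA of 9 genes that act in the first gap phase of the cell cycle was followed here in rat epiblast and germ cells. These were the D-type cyclin genes Ccnd1, Ccnd2 and Ccnd3, the E-type cyclin genes Ccne1 and Ccne2, the kinase genes Cdk4 and Cdk6, and the kinase inhibitor genes Cdkn1a and Cdkn1b. They were chosen by name, and each symbol matched 1 of the 32545 lines of the deposited table. All 9 were among the 14865 lines that were tested, which had at least 1 RPKM in at least 2 libraries. RPKM is the number of reads on a gene scaled by its length and by the mapped reads of the library.

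Germ cells had far less Ccnd1 and Ccne1 messenger RNA than epiblast, while Cdk4 was among the most abundant transcripts at every age. The D-type cyclin makeup differed between epiblast, E9.5 and later germ cells. Ccnd1 and Ccnd3 made up most of it in epiblast, Ccnd2 at E9.5, and Ccnd3 from E10.5 to E12.5. At E15.5 Ccnd3 fell in both sexes, and female germ cells had more Ccnd1 and Ccnd2 than male germ cells.

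The 18 libraries came from embryos of the Crlj:WI rat strain. All carried Prdm14-Venus, a fluorescent reporter of the germ cell regulator gene Prdm14. Epiblast, the pluripotent layer from which embryo and germ line arise, was sampled at embryonic day (E) 7.25 and E7.75, with 2 male libraries and 1 female library on each day. Primordial germ cells (PGC), the precursors of sperm and eggs, were sampled daily, at E9.5 and E10.5 and then at E11.5 and E12.5, with 2 libraries each and no sex label, and later at E15.5 with 2 female and 2 male libraries. No library lacked the reporter, so its presence is common to all groups. Whether replicates are separate animals is not labelled. The p-values therefore reflect only library-to-library spread, and part or all of it may be technical.

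In mammalian cells, growth signals raise D-type cyclins, which bind and activate CDK4 and CDK6. These kinases phosphorylate the retinoblastoma protein and its relatives, which releases E2F factors and so allows the genes of DNA synthesis to be transcribed. Cyclin E with CDK2 completes this step and starts replication, whereas p21 (Cdkn1a) and p27 (Cdkn1b) bind and restrain cyclin-kinase complexes. In the mouse, pluripotent epiblast cells divide fast with a short first gap phase, female fetal germ cells enter meiosis, and male fetal germ cells stop dividing before birth.

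The libraries carried the markers of their labels. The summed level of 6 PGC markers (Tfap2c, Prdm1, Prdm14, Nanos3, Kit and Dppa3) was 351 to 698 RPKM in PGC libraries and 0.932 to 10.7 RPKM in epiblast libraries. Of the epiblast markers Pou5f1, Dnmt3b, Tdgf1 and Fgf5, the sum was 118 to 399 RPKM in PGC and 2011 to 2669 RPKM in epiblast, although Fgf5 was listed at 0 in every library. The E9.5 libraries had the highest sums of markers of neighbouring tissue. Their 5 extraembryonic mesoderm markers summed to 466 to 496 RPKM, against 4.05 to 9.09 RPKM in E7.75 epiblast. Later PGC also carried this set, at 232 to 237 RPKM at E10.5, 181 to 189 at E11.5 and 136 to 161 RPKM at E12.5. At E15.5 it was 42 to 45.9 RPKM in female and 30.7 to 32.9 RPKM in male PGC. The 7 mesenchyme markers summed to 174 RPKM in both E9.5 libraries, with 6 of 7 at a mean of 1 RPKM or more. Their sum was 1.6 to 5.67 RPKM in E7.75 epiblast and 1.21 to 5.87 RPKM at E10.5. The table holds no read counts, and the number of reads per library is unknown. Relative depth, estimated from low values, was 20.7% to 22.9% at E10.5 and E11.5 (4 libraries) and 82.6% to 121% in the others, with the E7.75 female library set as the standard. Zeros are for this reason called listed values.

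The start of 3 of these genes is shown. Each has a sequence in the RefSeq promoter table (build GRCr8) and changed in at least 1 comparison. Ccne1 was lower in germ cells, and Ccnd3 fell at E15.5. Cdk4 was also lower in germ cells, by a small difference that depended on how the libraries were scaled. Of the 9 genes 5 had a window in the promoter table, Ccne1, Ccnd3, Cdk4, Cdkn1a and Cdkn1b. Each window has 250 bases before and 50 bases from the start of transcription. The windows lie at chr1:99927860-99928159 (minus strand) for Ccne1, at chr9:20897826-20898125 (minus strand) for Ccnd3 and at chr7:64771203-64771502 (plus strand) for Cdk4, and are printed 5′ to 3′ on the strand of the gene. Capitals mark the GC box GGGCGG, or its reverse complement CCGCCC, in Ccne1 and Ccnd3, and the E-box CACGTG in Cdk4.
Ccne1: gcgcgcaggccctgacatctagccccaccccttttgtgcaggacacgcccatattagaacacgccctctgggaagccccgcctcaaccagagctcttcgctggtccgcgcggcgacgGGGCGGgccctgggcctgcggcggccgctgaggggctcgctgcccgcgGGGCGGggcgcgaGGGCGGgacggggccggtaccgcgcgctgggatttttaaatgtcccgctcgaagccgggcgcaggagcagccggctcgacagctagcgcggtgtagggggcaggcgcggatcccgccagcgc
Ccnd3: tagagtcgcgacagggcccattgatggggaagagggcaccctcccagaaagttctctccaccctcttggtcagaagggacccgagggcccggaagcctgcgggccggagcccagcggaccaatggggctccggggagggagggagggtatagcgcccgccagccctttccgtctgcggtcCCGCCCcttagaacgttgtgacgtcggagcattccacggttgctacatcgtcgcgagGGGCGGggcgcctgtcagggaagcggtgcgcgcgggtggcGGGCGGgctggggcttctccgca
Cdk4: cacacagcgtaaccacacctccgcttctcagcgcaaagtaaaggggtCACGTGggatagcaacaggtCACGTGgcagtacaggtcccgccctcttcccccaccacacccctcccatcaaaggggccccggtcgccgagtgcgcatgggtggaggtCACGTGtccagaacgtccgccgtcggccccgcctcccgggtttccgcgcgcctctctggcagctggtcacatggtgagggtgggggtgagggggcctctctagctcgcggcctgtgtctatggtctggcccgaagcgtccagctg

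The E-box is the sequence bound by MYC and related factors, and the GC box is that of SP factors. The Cdk4 window held 3 E-boxes. Of 33469 rat promoter windows of this length 6.42% held at least 1 E-box and 0.0568% held 3 or more. The Ccne1 and Ccnd3 windows held 3 GC boxes each. At least 1 GC box was in 33.1% of all windows, and 3 or more were in 8.97%. Both strands were searched, and an E2F sequence can share letters with a GC box. None of the 5 windows held the E2F sequences TTTCCCGC, TTTCGCGC, TTTGCCGC or TTTGGCGC (2.14% of all windows) or the CRE TGACGTCA (1.83%). These matches describe letters in a window and do not show that a factor binds.

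Tests were run on log2(RPKM + 1) with limma, a linear model whose spread was shared by all 18 libraries, with Benjamini-Hochberg adjustment over all 14865 lines and a threshold of 0.05. Differences are given on this scale with their standard error (SE), which understates the change of genes with low values, while a fold named in the text divides one mean RPKM by another, and means carry their SD. In these bulk samples, fewer cells with a transcript and less RNA per cell cannot be told apart.

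How many of the 9 genes changed differed by step. Between E7.75 and E7.25 epiblast 0 of 9 passed in limma, where 0.101% of all tested lines were higher and 0.168% lower. An unadjusted limma p under 0.05 was found there for 2 of the 9 and for 1300 of all 14865 lines. At E9.5 against E7.75 epiblast 1 of 9 was higher, beside 16.3% of all lines, and 2 were lower, beside 11.3%. At E10.5 against E9.5, 0 of 9 were higher (11.5% of all lines) and 3 lower (18.4%).

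At E11.5 against E10.5, 0 were higher (3.59% of all lines) and 1 lower (3.61%). At E12.5 against E11.5, 0 of 9 passed in limma, while 4.12% of all lines were higher and 3.09% lower. An unadjusted limma p under 0.05 was found there for 1 of the 9 and for 3080 of all 14865 lines. The steps to E11.5 and E12.5 had the fewest changes among the germ cell ages. Over all lines, too, they had the fewest, with 1069 and 1072 lines that passed. Both steps include libraries of lower relative depth, as does E10.5 against E9.5, where 4443 lines passed. In male E15.5 PGC against E12.5 PGC 1 gene was higher (3.58% of all lines) and 1 lower (5.15%). In female E15.5 PGC against E12.5 PGC 2 were higher (8.6%) and 2 lower (9.84%). In female against male E15.5 PGC 2 were higher (4.33%) and 2 lower (5.35%), and all PGC ages against both epiblast days gave 0 higher (30.7%) and 3 lower (25.6%). The median difference of the 9 genes was -0.39 for all PGC against epiblast, where that of all tested lines was 0.08, and -0.65 at E10.5 against E9.5, where that of all lines was -0.16. The comparisons with E12.5 share its libraries, and neighbouring steps share the libraries between them.

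**Figure D1:**
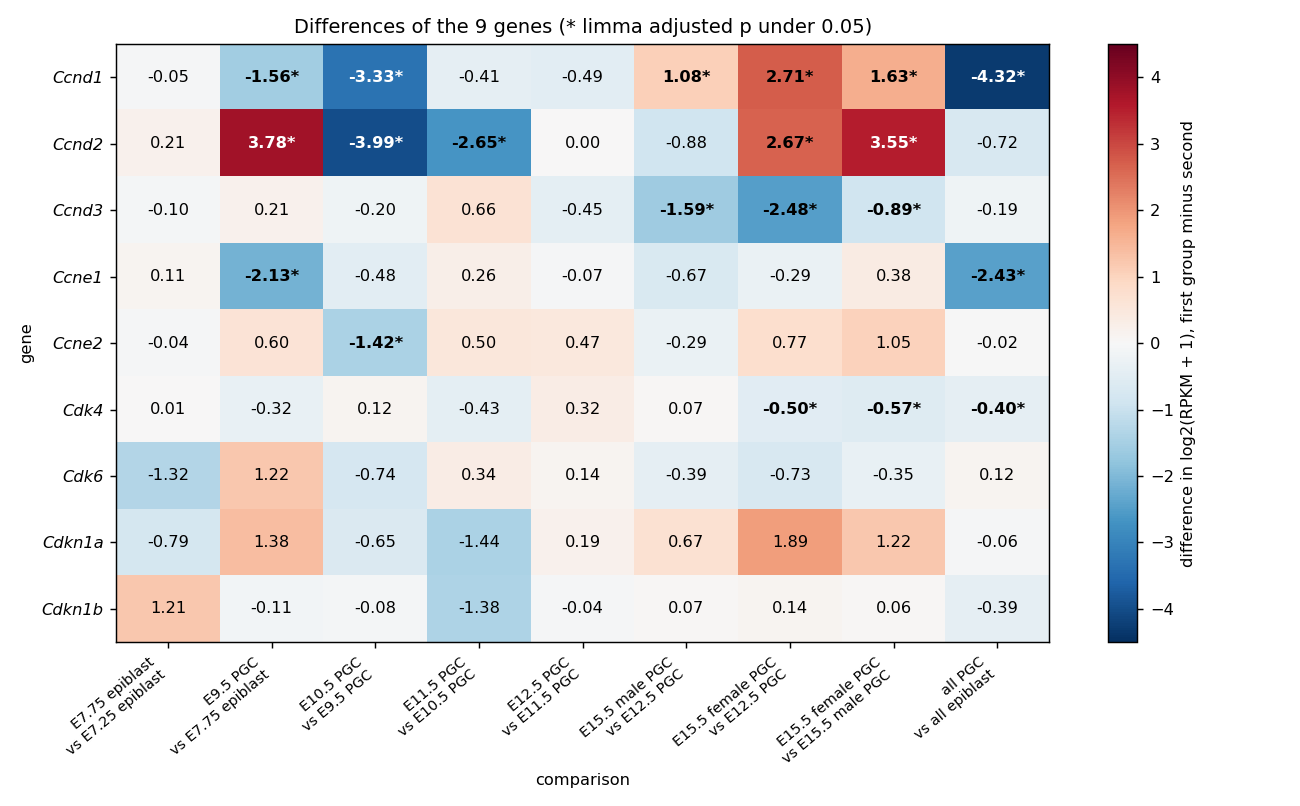
Difference in log2(RPKM + 1) of each of the 9 genes (vertical) in each of the 9 comparisons (horizontal), first group minus second, with colour from blue (lower) to red (higher). Asterisks mark a limma adjusted p under 0.05; the 20 marked cells lie in Ccnd1, Ccnd2, Ccnd3, Ccne1, Ccne2 and Cdk4, and none in Cdk6, Cdkn1a or Cdkn1b.

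Ccnd1 (ENSRNOG00000020918) encodes cyclin D1, the D-type cyclin that responds most widely to growth factors. It stood at 89, 79.6 and 82.4 RPKM in the E7.25 epiblast libraries and at 86, 77.6 and 77.9 RPKM in those of E7.75. In PGC it was 20.8 and 33.7 RPKM at E9.5, 1.88 and 1.6 at E10.5, 0.96 and 1.18 at E11.5, and 0.159 and 0.861 RPKM at E12.5. At E15.5 it was 8.85 and 8.32 RPKM in female and 1.9 and 2.31 RPKM in male PGC. The epiblast days overlapped, and from E7.75 to E12.5 the libraries of each age lay below all those of the age before.

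Over all ages PGC had 6.88 ± 10.3 RPKM of Ccnd1 and epiblast 82.1 ± 4.6 RPKM (SD, n = 12 and 6), 11.9-fold lower in PGC (-4.32 ± 0.14, limma adjusted p = 1.22e-11). The first fall was 2.95-fold, with 27.3 ± 9.13 RPKM at E9.5 against 80.5 ± 4.72 RPKM in E7.75 epiblast (-1.56 ± 0.25, limma adjusted p = 0.00033). The larger one came a day later and was 15.7-fold, with 1.74 ± 0.199 RPKM at E10.5 against 27.3 ± 9.13 RPKM at E9.5 (-3.33 ± 0.27, limma adjusted p = 3.05e-06), a call that ended with the 4 compared libraries alone (adjusted p = 0.0822). The 2 following steps did not pass. At E12.5 Ccnd1 ranked between the 11.5 and 20.6 percentiles of all tested lines, against 87.4 to 88.6 in epiblast.

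Female E15.5 PGC had 8.59 ± 0.375 RPKM of Ccnd1 against 0.51 ± 0.496 RPKM at E12.5, 16.8-fold higher (2.71 ± 0.27, limma adjusted p = 1.73e-05), and this kept its call under every alternative run. The fold itself depended on the low E12.5 values, at 9.98 without E12.5 replicate 1 and 53.9 without replicate 2. In male E15.5 PGC it was 2.11 ± 0.29 RPKM, 4.13-fold above E12.5 (1.08 ± 0.27, limma adjusted p = 0.0235). That male fold was 2.45 without E12.5 replicate 1 and 13.2 without replicate 2. The male difference lost its call without E12.5 replicate 1 (0.74, adjusted p = 0.207), without male replicate 1 (adjusted p = 0.0716) or 2 (0.136), and with the compared libraries alone (0.162). Between the sexes Ccnd1 was 4.08-fold higher in female than in male PGC (1.63 ± 0.27, limma adjusted p = 0.00181), and 0.117 with the 4 E15.5 libraries alone. The sum of 9 markers of gonadal somatic cells was 17.6 to 33.8 RPKM in female, 27.9 to 30.6 RPKM in male and 9.28 to 9.55 RPKM in E12.5 libraries. Of these, Foxl2, a granulosa cell marker, was listed at 0 in all libraries of the 3 groups, and Amh, a Sertoli cell marker, in those of female and E12.5 PGC. In all, 3 of the 9 markers had a mean of 1 RPKM or more in each sex. The 7 mesenchyme markers summed to 5.74 to 7.67 RPKM in female, 19.2 to 22.4 RPKM in male and 1.84 to 5.03 RPKM in E12.5 libraries. The part of these cells in the E15.5 values of any gene was not tested.

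Ccnd2 (ENSRNOG00000057710), which encodes cyclin D2, had the widest swings. It was 30.8, 13.2 and 9.52 RPKM at E7.25 and 16.1, 23.6 and 16.4 RPKM at E7.75 in epiblast, then 296 and 240 RPKM in E9.5 PGC. It was 16.9 and 14.7 RPKM at E10.5, 6.15 RPKM and a listed 0 at E11.5, and 2.67 and 0.958 RPKM at E12.5. At E15.5 it was 14.8 and 17.4 RPKM in female PGC and 0.463 and 0.455 RPKM in male PGC. The E9.5 libraries were above all others, and the female E15.5 libraries were back within the range of E7.25 epiblast.

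At E9.5 Ccnd2 was 14.3-fold higher, with 268 ± 39.9 RPKM against 18.7 ± 4.24 RPKM in E7.75 epiblast (3.78 ± 0.63, limma adjusted p = 0.000485), which held under every alternative run. At E10.5 it was 15.8 ± 1.55 RPKM, 16.9-fold lower than at E9.5 (-3.99 ± 0.69, limma adjusted p = 0.000665; 0.06 with the compared libraries alone). The mesenchyme and extraembryonic mesoderm markers given above were high in the same 2 libraries, and so were 6 endothelial markers, at 32.8 to 115 RPKM against 3.16 to 6.65 RPKM in E7.75 epiblast and 8.87 to 9.58 RPKM at E10.5. The part of such cells in the E9.5 level was not tested.

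The next step of Ccnd2 was lower at E11.5 than at E10.5 (3.08 ± 4.35 against 15.8 ± 1.55 RPKM; -2.65 ± 0.69, limma adjusted p = 0.0332). This call was not stable. It ended without E11.5 replicate 2, where Ccnd2 was listed at 0 (-1.23, adjusted p = 0.26, and 2.57-fold lower), without E10.5 replicate 1 (0.125) or 2 (0.0682), with a pseudocount of 0.1 (0.0518), without the filter on low values (0.0641), and with the compared libraries alone (0.454). Between the sexes at E15.5 the difference was 35.1-fold, with 16.1 ± 1.8 RPKM in female and 0.459 ± 0.00534 RPKM in male PGC (3.55 ± 0.69, limma adjusted p = 0.00497), and 0.0746 with the 4 libraries alone. Female PGC were 8.88-fold above the 1.82 ± 1.21 RPKM of E12.5 (2.67 ± 0.69, limma adjusted p = 0.0148), or 16.8-fold without E12.5 replicate 1. The call ended without E12.5 replicate 2 (2.22, adjusted p = 0.129), without female replicate 1 (0.0534) or 2 (0.0836), with a pseudocount of 0.1 (0.101), and with the compared libraries alone (0.0642). Male PGC did not differ from E12.5 beyond the test (-0.88 ± 0.69, limma adjusted p = 0.529).

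Ccnd3 (ENSRNOG00000050258), which encodes cyclin D3, was the steadiest D-type cyclin gene until E12.5. It lay between 94.2 and 121 RPKM in the 6 epiblast libraries. It was 88.3 and 167 RPKM at E9.5, 101 and 111 at E10.5, 149 and 189 at E11.5, and 134 and 112 RPKM at E12.5. At E15.5 it was 25.8 and 17.3 RPKM in female and 37.7 and 42.4 RPKM in male PGC, below every earlier library. Its E9.5 replicates were the farthest apart of any age.

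In female E15.5 PGC Ccnd3 was 21.6 ± 6.01 RPKM against 123 ± 16.1 RPKM at E12.5, 5.7-fold lower (-2.48 ± 0.25, limma adjusted p = 1.94e-05). In male E15.5 PGC it was 40 ± 3.27 RPKM, 3.07-fold lower than at E12.5 (-1.59 ± 0.25, limma adjusted p = 0.00134). Both falls kept their calls under every alternative run. The sexes differed less firmly, with 1.86-fold less in female than in male PGC (-0.89 ± 0.25, limma adjusted p = 0.0381). That call ended without female replicate 2 (-0.61, adjusted p = 0.284), without male replicate 1 (0.115) or 2 (0.194), without E12.5 replicate 1 or 2 (0.0508 each), without E7.25 male replicate 2 (0.0537) or the E7.75 female library (0.0514), without the filter (0.0602), with quantile normalization (0.0625), and with the 4 libraries alone (0.195). No earlier step passed. Ccnd3 passed at E9.5 against E7.75 epiblast (0.67, limma adjusted p = 0.0377) and at E10.5 against E9.5 (-0.66, 0.0488) once E9.5 replicate 1 was left out, and at E11.5 against E10.5 (0.66, limma adjusted p = 0.131) once E9.5 replicate 1 (0.0424) or 2 (0.0428) was.

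Because RPKM is scaled to gene length, the 3 genes can be added within a library. Their summed level was 214 ± 23.5 RPKM in E7.25 and 204 ± 11 RPKM in E7.75 epiblast (SD, n = 3 each), and 423 ± 24.9 RPKM at E9.5. It was 123 ± 5.19 RPKM at E10.5, 173 ± 24.2 at E11.5 and 125 ± 16.9 RPKM at E12.5, then 46.3 ± 4.58 RPKM in female and 42.6 ± 3.56 RPKM in male E15.5 PGC (SD, n = 2 each). The 2 sexes overlapped in this sum, at 43 to 49.5 RPKM in female and 40.1 to 45.1 RPKM in male libraries.

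The makeup of that sum moved from gene to gene. Ccnd1 and Ccnd3 held means of 39.5% and 51.3% in E7.75 epiblast. Ccnd2 held 63.8% at E9.5, with 73.1% in 1 library and 54.4% in the other. Ccnd3 held 85.7% at E10.5, 97.4% at E11.5 and 98.2% at E12.5. In female E15.5 PGC the shares were 18.6% for Ccnd1, 35.2% for Ccnd2 and 46.2% for Ccnd3, against 4.93%, 1.08% and 94% in male PGC. The 2 female libraries thus mixed all 3 genes, where the 2 male libraries had nearly only Ccnd3.

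**Figure D2:**
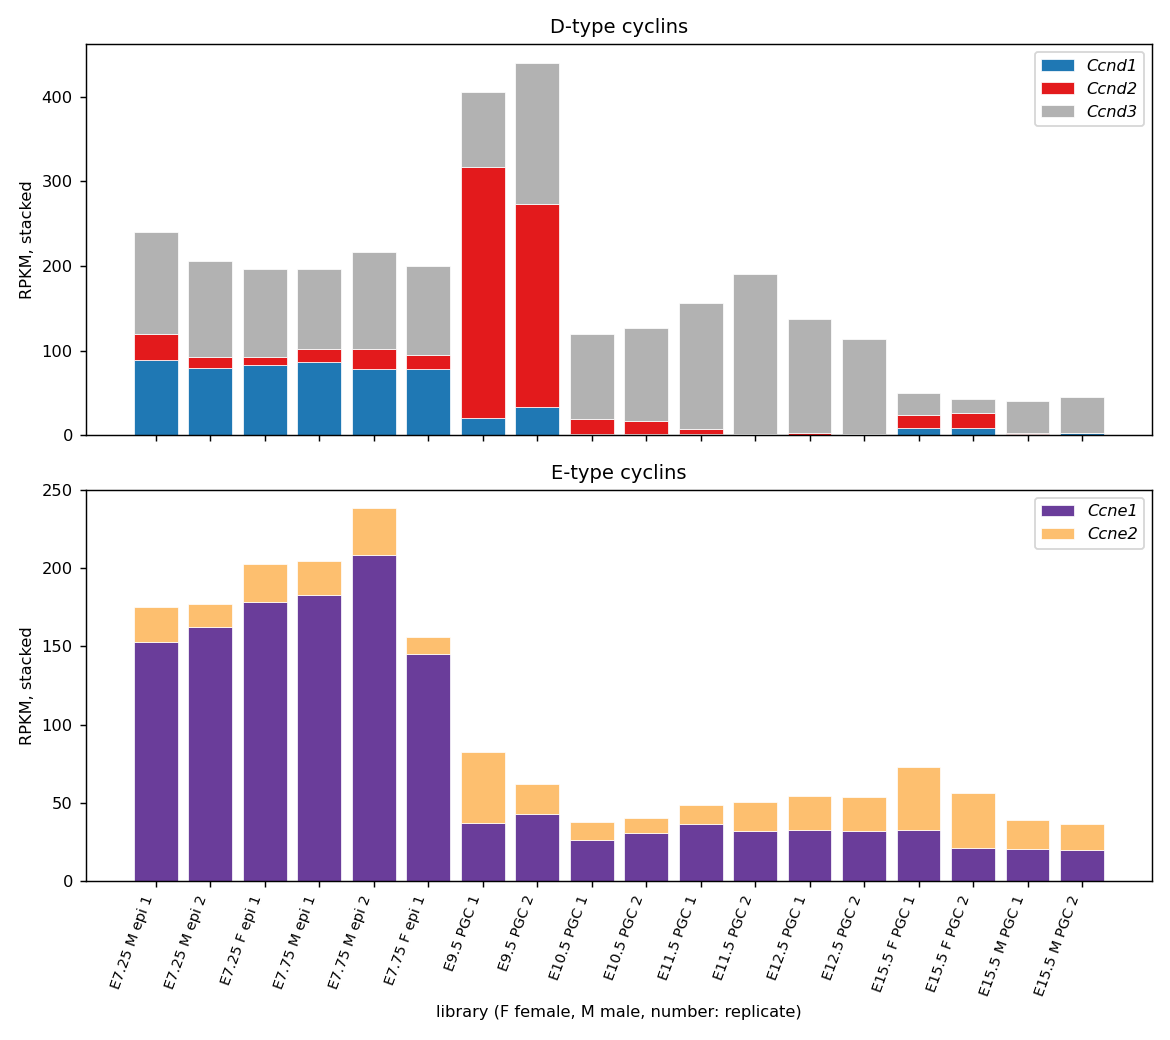
Stacked RPKM of the D-type cyclin genes (top) and the E-type cyclin genes (bottom) in each of the 18 libraries (horizontal, in order of age, F female and M male). The D-type sum is highest in the E9.5 libraries, at 405 to 440 RPKM and mostly Ccnd2, and the E-type sum is highest in epiblast, at 156 to 238 RPKM, mostly Ccne1.

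Ccne1 (ENSRNOG00000014786), which encodes cyclin E1, separated epiblast from germ cells. It was 153, 163 and 179 RPKM at E7.25 and 183, 209 and 145 RPKM at E7.75 in epiblast. In PGC it was 36.7 and 42.7 RPKM at E9.5, 25.9 and 30.4 at E10.5, 36.2 and 31.8 at E11.5, and 32.5 and 31.9 RPKM at E12.5. Its E15.5 values were 32.7 and 21 RPKM in female and 20.3 and 19.4 RPKM in male PGC. The highest PGC library, at 42.7 RPKM, was far below the lowest epiblast library, at 145 RPKM.

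Over all ages PGC had 30.1 ± 7.19 RPKM of Ccne1 and epiblast 172 ± 23.2 RPKM (SD, n = 12 and 6), 5.7-fold lower in PGC (-2.43 ± 0.10, limma adjusted p = 1.94e-10). The fall was present at the first germ cell age, with 39.7 ± 4.25 RPKM at E9.5 against 179 ± 32 RPKM in E7.75 epiblast, 4.51-fold lower (-2.13 ± 0.19, limma adjusted p = 1.91e-06). Both held under every alternative run. No later step passed. The nearest were male E15.5 PGC against E12.5 PGC (-0.67 ± 0.20, limma adjusted p = 0.0563) and E10.5 against E9.5 (-0.48 ± 0.20, limma adjusted p = 0.0929). The first of these passed with quantile normalization (0.0431), without the E7.75 female library (0.0472) and without female E15.5 replicate 1 (0.0272) or 2 (0.0271), and the second without female E15.5 replicate 1 (0.0487) or 2 (0.0483).

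Ccne2 (ENSRNOG00000008055), which encodes cyclin E2, did not follow Ccne1. It was 22.6, 14.6 and 23.8 RPKM at E7.25 and 21.8, 29.8 and 11 RPKM at E7.75, then 45.8 and 19.4 RPKM at E9.5. It was 11.7 and 9.47 RPKM at E10.5, 12.5 and 18.7 at E11.5, and 21.5 and 21.8 RPKM at E12.5, and at E15.5 it was 40.4 and 35 RPKM in female and 18.3 and 16.8 RPKM in male PGC. Both female E15.5 libraries and 1 E9.5 library were above all 6 epiblast libraries, and 1 E10.5 library was below them.

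Against E9.5, Ccne2 was 3.08-fold lower at E10.5 (10.6 ± 1.58 against 32.6 ± 18.7 RPKM; -1.42 ± 0.42, limma adjusted p = 0.0202). That call ended without E9.5 replicate 1 (-0.82, adjusted p = 0.204, and 1.83-fold lower), without E10.5 replicate 2 (0.0906), with quantile normalization (0.0789) and with the compared libraries alone (0.253). The female libraries had 37.7 ± 3.82 RPKM against 17.6 ± 1.08 RPKM in male E15.5 PGC, 2.14-fold higher without overlap, but this did not pass (1.05 ± 0.42, limma adjusted p = 0.142). All PGC and all epiblast did not differ beyond the test (22.6 ± 11.6 and 20.6 ± 6.76 RPKM; -0.02 ± 0.21, limma adjusted p = 0.955). The share of Ccne1 in the E-type sum was 89.9% in E7.75 epiblast, 56.6% at E9.5 and 59.8% at E12.5, and it was 41.1% in female against 53% in male E15.5 PGC.

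**Figure D3:**
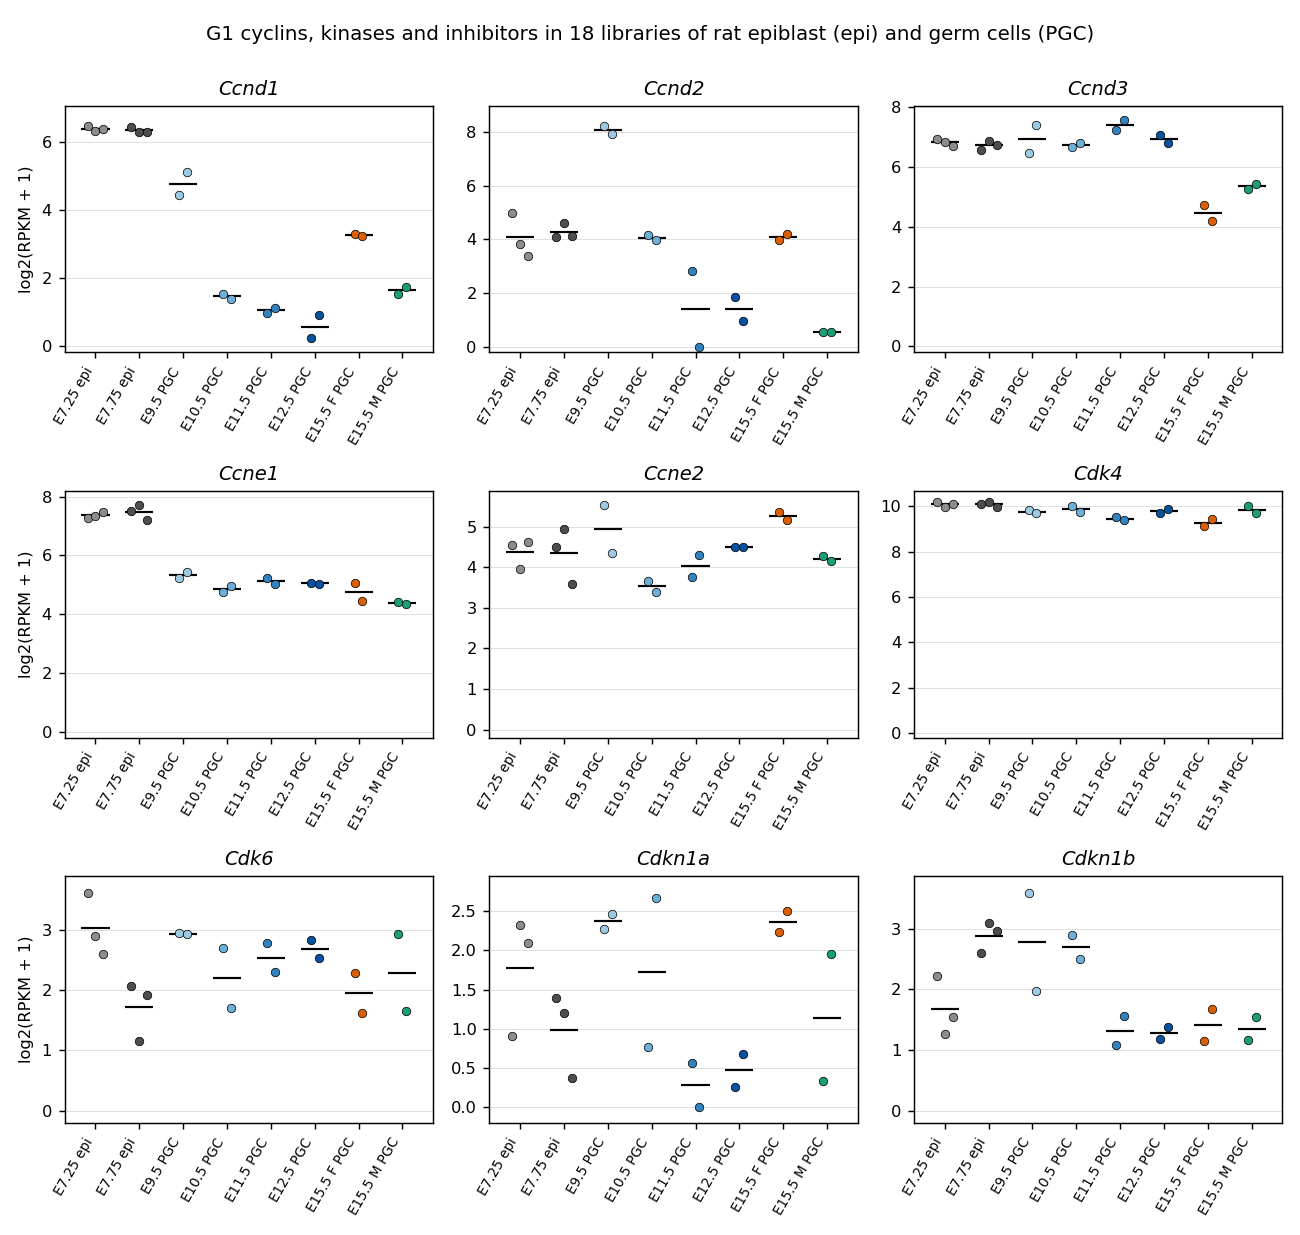
Level of each of the 9 genes as log2(RPKM + 1) (vertical, scales differ between panels) in the 8 groups (horizontal, in order of age; epi, epiblast; F, female; M, male). Points are libraries and bars are group means; Ccnd1 and Ccne1 stand at the top in epiblast, Ccnd2 at E9.5, and Ccnd3 is lowest at E15.5.

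Cdk4 (ENSRNOG00000025602), the kinase gene partnered with the D-type cyclins, was at or above the 99.3 percentile of all tested lines in every library. It was 1163, 1014 and 1079 RPKM at E7.25 and 1079, 1182 and 1014 RPKM at E7.75 in epiblast. In PGC it was 904 and 838 RPKM at E9.5, 1036 and 864 at E10.5, 737 and 667 at E11.5, and 824 and 932 RPKM at E12.5. Its E15.5 values were 558 and 689 RPKM in female and 1022 and 826 RPKM in male PGC. The range of PGC met that of epiblast only at its upper end.

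PGC had 825 ± 143 RPKM of Cdk4 and epiblast 1089 ± 71.4 RPKM (SD, n = 12 and 6), 1.32-fold lower in PGC (-0.40 ± 0.07, limma adjusted p = 0.000286). With quantile normalization, which gives all libraries the same distribution of values, that difference was -0.05 and did not pass (adjusted p = 0.532). Female E15.5 PGC, at 623 ± 92.5 RPKM, were 1.48-fold below the 924 ± 139 RPKM of male PGC (-0.57 ± 0.14, limma adjusted p = 0.021) and 1.41-fold below the 878 ± 76 RPKM of E12.5 (-0.50 ± 0.14, limma adjusted p = 0.0241). The difference between the sexes ended without male replicate 1 (-0.41, adjusted p = 0.203), without female replicate 1 (-0.41, 0.147) and with the 4 libraries alone (0.282). That against E12.5 ended without E12.5 replicate 1 (0.0515) or 2 (-0.41, 0.177), without female replicate 1 (-0.35, 0.173) and with the compared libraries alone (0.201). At E10.5 against E9.5 Cdk4 did not pass (0.12 ± 0.14, limma adjusted p = 0.576), but quantile normalization turned the direction (-0.49, adjusted p = 0.0066), and with it Cdk4 also passed at E12.5 against E11.5 (0.47, 0.0215; otherwise 0.32, 0.209).

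Cdk6 (ENSRNOG00000009258), the other kinase gene of the D-type cyclins, was low throughout, from 1.23 RPKM in an E7.75 to 11.3 RPKM in an E7.25 epiblast library. Cdk4 made up a mean of at least 99.2% of the summed level of both kinase genes in every group. Cdk6 stood at 3.19, 1.23 and 2.79 RPKM at E7.75 and 11.3, 6.48 and 5.04 RPKM at E7.25, without overlap, but did not pass (-1.32 ± 0.41, limma adjusted p = 0.292). At E9.5 it was 6.69 and 6.59 RPKM, above the E7.75 libraries, and did not pass either (1.22 ± 0.46, limma adjusted p = 0.0656), although it did without male E15.5 replicate 1 (0.0499) or 2 (0.0493). From E10.5 to E15.5 it ranged from 2.07 to 6.66 RPKM.

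Cdkn1a (ENSRNOG00000000521), which encodes p21, was between a listed 0 and 5.34 RPKM. It was 0.88, 4.02 and 3.26 RPKM at E7.25, 1.63, 1.3 and 0.294 RPKM at E7.75, and 3.83 and 4.53 RPKM at E9.5. It was 0.71 and 5.34 RPKM at E10.5, 0.482 RPKM and a listed 0 at E11.5, and 0.194 and 0.607 RPKM at E12.5. Its E15.5 values were 3.69 and 4.65 RPKM in female and 0.257 and 2.88 RPKM in male PGC. Replicates differed widely at E10.5 and in male E15.5 PGC, and no comparison passed.

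The nearest for Cdkn1a was female E15.5 PGC, with 4.17 ± 0.677 RPKM against 0.4 ± 0.292 RPKM at E12.5 (1.89 ± 0.66, limma adjusted p = 0.0619). It passed without E10.5 replicate 1 (0.0329) or 2 (0.0326) and without male E15.5 replicate 1 (0.0496) or 2 (0.0491), libraries that entered only through the shared spread. Female and male PGC did not differ beyond the test (1.22 ± 0.66, limma adjusted p = 0.3).

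Cdkn1b (ENSRNOG00000007249), which encodes p27, was highest in E7.75 epiblast and in the first 2 germ cell ages. It was 3.64, 1.4 and 1.9 RPKM at E7.25, 5.05, 7.55 and 6.81 RPKM at E7.75, 11 and 2.92 RPKM at E9.5, and 6.46 and 4.63 RPKM at E10.5. From E11.5 on, no library exceeded 2.21 RPKM. The values of E7.75 and E7.25 did not overlap, yet did not pass (1.21 ± 0.40, limma adjusted p = 0.318). Nor did those of E11.5 and E10.5, at 1.11 and 1.94 against 6.46 and 4.63 RPKM (-1.38 ± 0.49, limma adjusted p = 0.105), which passed without E9.5 replicate 1 (0.0407) or 2 (0.0404).

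Over all ages the comparison of PGC with epiblast depended on E9.5 for 3 genes. Without the 2 E9.5 libraries, 6 of the 9 genes were lower in PGC, against 3 with them, a check added after the values were seen. Of the 14865 tested lines 8725 passed in either direction without E9.5, against 8367 with it. The share of lower lines in that fit is not given here, so nothing is read from the count of 6. The 3 added were Ccnd2 (-1.87, limma adjusted p = 0.000965, against -0.72 and 0.0935 with E9.5, where the ratio of mean RPKM was 2.78), Ccnd3 (-0.27, 0.0267, against -0.19 and 0.224) and Cdkn1b (-0.61, 0.0186, against -0.39 and 0.196). Ccnd2 also passed without E11.5 replicate 1 (0.00261), Ccnd3 without E9.5 replicate 2 (-0.28, 0.0264) or without the shallower libraries of E10.5 and E11.5 (-0.51, 0.00973), and Cdkn1b without E9.5 replicate 1 (-0.55, 0.0317).

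Other kinase inhibitor genes passed in comparisons where Cdkn1a and Cdkn1b did not. Of 5 such genes 3 were tested: Cdkn1c, which encodes p57, and Cdkn2a and Cdkn2b, which encode inhibitors of CDK4 and CDK6. All 3 were higher in each sex at E15.5 than in E12.5 PGC, where 8.6% of all lines were higher in female and 3.58% in male PGC. Nothing is read from this count, since Cdkn2a and Cdkn2b reached 1 RPKM in 2 libraries, as the filter asks, only through the E15.5 libraries. Cdkn1c was 34.4 and 45.4 RPKM in female and 50.2 and 50.5 RPKM in male PGC, against 7.83 and 9.59 RPKM at E12.5. Its differences were 2.07 ± 0.50 in female (limma adjusted p = 0.0106) and 2.41 ± 0.50 in male PGC (limma adjusted p = 0.00835), and the differences moved little when single libraries were left out, although the calls ended. The female difference was 1.94 without E12.5 replicate 1 (adjusted p = 0.074) and 1.87 without female replicate 2 (0.0802). The male difference was 2.28 without E12.5 replicate 1 (0.0701) and 2.41 without male replicate 1 (0.0561) or 2 (0.0591). Cdkn2b was 10.3 and 10.6 RPKM in male PGC against 0.94 and 1.87 RPKM at E12.5, a difference of 2.28 ± 0.31. No p-value is given for it, since the filter admitted Cdkn2b only through the E15.5 libraries.

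Cdkn2a was listed at 0 in every PGC library from E10.5 to E12.5. Its E15.5 values were 9.39 and 10.9 RPKM in female and 2.66 and 2.84 RPKM in male PGC (1.57 ± 0.33, limma adjusted p = 0.00823). The difference between the sexes ended with a pseudocount of 0.1 (0.341), with the 4 libraries alone (0.118) and without female replicate 2 (0.0541) or male replicate 2 (0.05). In the fit of all 18 libraries, female PGC had more Cdkn2a, Ccnd1 and Ccnd2 and less Cdk4 than male PGC. None of these differences passed with the 4 E15.5 libraries alone. Those of Cdkn2a and Cdk4 also ended when single E15.5 libraries were left out. Cdkn1c had an earlier peak, at 773 and 1301 RPKM in the E9.5 libraries with the high Ccnd2, against 3.39 to 14 RPKM in E7.75 epiblast (6.96 ± 0.46, limma adjusted p = 1.37e-07), and was 7.56 and 11.3 RPKM at E10.5. The same mesenchyme and extraembryonic mesoderm markers stood beside it, and their part was not tested.

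**Figure D4:**
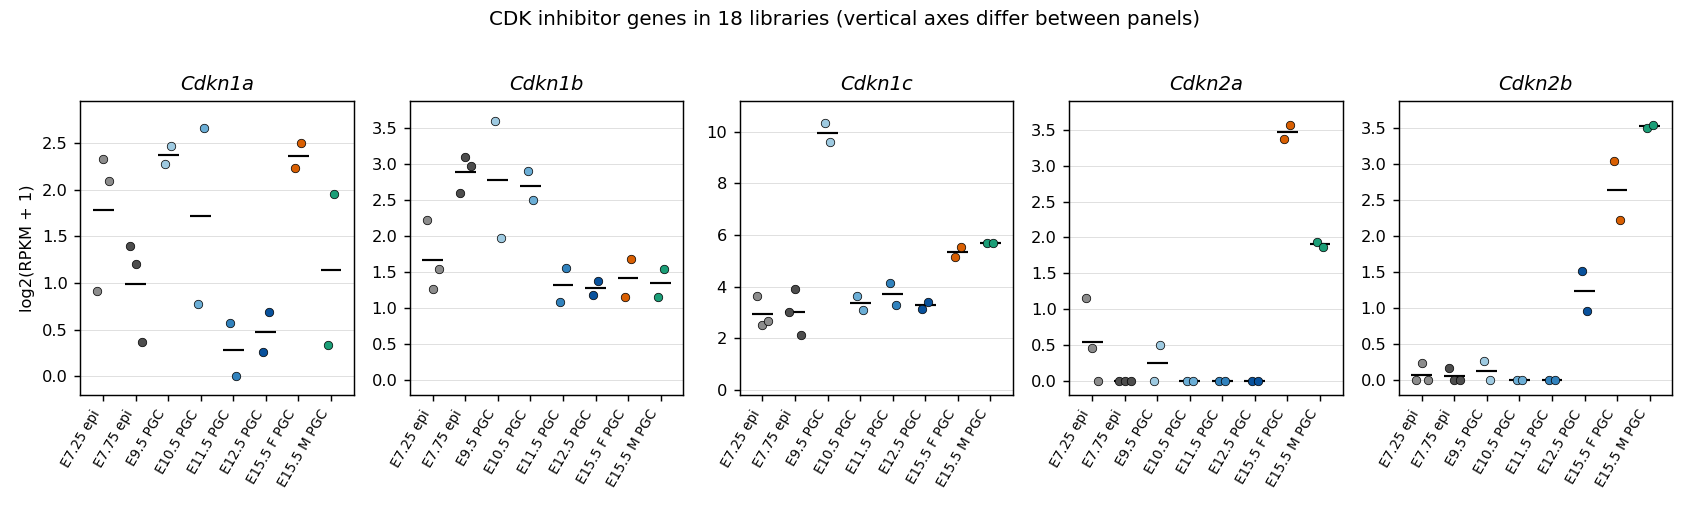
Level of 5 kinase inhibitor genes as log2(RPKM + 1) (vertical, scales differ between panels) in the 8 groups (horizontal, in order of age; epi, epiblast; F, female; M, male). Points are libraries and bars are group means; Cdkn1c peaks at E9.5 with 773 and 1301 RPKM, and Cdkn2a and Cdkn2b are highest at E15.5.

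Rb1 was higher and E2f4 lower in PGC, 2 genes of the family on which the G1 kinases act. Of 13 retinoblastoma and E2F family genes 4 were higher in PGC and 5 were lower, set against epiblast, beside 30.7% and 25.6% of all tested lines, with a median of -0.04 beside 0.08 over all lines. Rb1, the retinoblastoma gene, was 13.5 ± 8.46 RPKM in PGC and 1.92 ± 0.934 RPKM in epiblast (1.99 ± 0.22, limma adjusted p = 3.13e-06). E2f4, an E2F that mostly represses, was 43.5 ± 11.5 RPKM in PGC and 148 ± 12.5 RPKM in epiblast (-1.73 ± 0.10, limma adjusted p = 3.31e-09). Tfdp1, which encodes an E2F partner and had the highest level of those that did not pass, differed little (196 ± 41.4 and 197 ± 20 RPKM; -0.08 ± 0.06, limma adjusted p = 0.298). In female E15.5 PGC 1 of the 13 was lower than at E12.5 (9.84% of all lines) and 0 were higher (8.6%).

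Of 20 genes of DNA synthesis that E2F regulates, 8 were higher and 7 lower in PGC, set against epiblast, beside the same 30.7% and 25.6% of all lines, with a median of 0.03. Rrm2, a ribonucleotide reductase gene, was among the higher (33.9 ± 8.53 and 20.7 ± 3.23 RPKM; 0.62 ± 0.10, limma adjusted p = 0.000132). In female E15.5 PGC 1 of the 20 was higher and 4 lower than at E12.5 (8.6% and 9.84% of all lines), with a median of -0.23. In male E15.5 PGC 1 was higher and 0 lower (3.58% and 5.15% of all lines), with a median of -0.02. Of 13 later cyclin and kinase genes 5 were higher and 4 lower in PGC, set against epiblast (30.7% and 25.6% of all lines), and the mitotic kinase gene Cdk1 was among the lower (165 ± 52.8 and 272 ± 49.1 RPKM; -0.69 ± 0.10, limma adjusted p = 5.95e-05).

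Of 12 genes of the ubiquitin ligases of the cell cycle and their regulators, 1 was higher and 2 lower in female E15.5 PGC than at E12.5 (8.6% and 9.84% of all lines), and 3 were lower in male E15.5 PGC (5.15% of all lines). Skp2, which targets p27 for destruction, was 12.4 ± 3.32 RPKM in female and 21.4 ± 0.927 RPKM in male PGC, against 45.3 ± 9.91 RPKM at E12.5 (-1.80 ± 0.25 and -1.03 ± 0.25, limma adjusted p = 0.000211 and 0.0191, the first 0.0626 with the compared libraries alone and the second 0.0962, and 0.183 without E12.5 replicate 2, 0.11 without male replicate 1 and 0.0846 without male replicate 2). Fbxo5, an inhibitor of the ubiquitin ligase that destroys mitotic cyclins, was 39.3 ± 1.54 RPKM in female and 40.7 ± 3.8 RPKM in male PGC against 135 ± 0.527 RPKM at E12.5 (-1.75 ± 0.13 and -1.71 ± 0.13, limma adjusted p = 1.41e-06 and 3.06e-06). The Cdkn1b messenger RNA did not pass in either sex.

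Mycn and Myc, which encode growth-promoting transcription factors, fell by E15.5, Mycn in both sexes and Myc in female PGC. They belong to a list of MYC, MAX, MXD and FOX transcription factor genes, of which 9 were tested. A set of MYC target genes was not examined. Of the listed genes 1 was higher and 2 lower in female PGC than at E12.5 (8.6% and 9.84% of all lines). In male PGC 1 was lower (5.15% of all lines). Mycn was 43.9 ± 2.25 RPKM in female and 49.6 ± 5.59 RPKM in male PGC against 139 ± 12.5 RPKM at E12.5 (-1.64 ± 0.22 and -1.47 ± 0.22, limma adjusted p = 0.000171 and 0.000851), and Myc was 2.42 ± 0.139 RPKM in female PGC against 22.9 ± 1.73 RPKM (-2.80 ± 0.46, limma adjusted p = 0.000808).

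The patterns of the 9 genes were compared across the 18 libraries, which share groups and depth, so the correlations are descriptions. Among the 9, Ccnd1 and Ccne1 were most alike (Pearson r = 0.87), followed by Ccne1 and Cdk4 (0.64) and by Ccnd2 and Cdkn1b (0.62), while Ccnd3 ran most against Ccne2 (-0.43). Among all tested lines that reached a group mean of 5 RPKM, the line most like Ccne1 was the DNA methyltransferase gene Dnmt3b (r = 0.988), and that most like Ccnd1 was Parvb, a focal adhesion gene (0.985). For Ccnd2 it was Tmem59 (0.931), followed by Pdlim4 (0.928) and the fibronectin gene Fn1 (0.918). For Ccnd3 they were Bak1 (0.912), Pltp (0.912) and Zyx (0.911), and for Cdk4 it was Tvp23b (0.908). The closest lines were less alike for Ccne2 (AABR07054262.2, 0.858), Cdkn1b (Tox3, 0.838), Cdkn1a (Ripk1, 0.764) and Cdk6 (Mrps10, 0.692).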

How the data were processed

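RNA-seq of rat embryo cells was given as 1 table of RPKM values made and deposited by the authors, with 18 value columns and 0 columns of other samples. Per the labels' protocols, total RNA was isolated with PicoPure and amplified with SMART-Seq v4. Tools named in the submitters' processing notes, without their roles, are Cufflinks 2.2.1, TopHat2 2.1.0, bcl2fastq 2.18.0.12 and cutadapt 1.14, and the build is rn6. Strand use in counting is not given in the sources used here, so reads of overlapping antisense genes cannot be told apart.

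Groups follow the labels, except that male and female epiblast libraries of the same day were put together. Any sex difference within an epiblast day is thus part of the spread. Lines with at least 1 RPKM in at least 2 libraries were kept, and limma 3.58.1 in R 4.3.3 (trend option) was fitted to log2(RPKM + 1) with 8 group means and 10 residual degrees of freedom, then checked on simulated data. All PGC against all epiblast compares the mean over PGC ages with the mean over epiblast days. Each age has equal weight, and E15.5 enters as the mean of its male and female groups. The RPKM means and folds printed beside it are plain means over libraries. Alternatives were a pseudocount of 0.1, no filter, quantile normalization, the compared libraries alone, the replicate number as a term, PGC and epiblast as 2 groups, fits without E10.5 and E11.5 or without E9.5, and each library left out in turn. The 9 genes are reported in every comparison. From each gene list up to 2 rises and 2 falls could be named, with the highest gene that did not pass, and for likeness up to 3 lines a gene. Members and lists were chosen with earlier results of these data known. Promoter windows came from RefSeq by symbol, and 5 of 9 genes matched. Results of some genes and of 1 gene list are not reported here.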

Additional observations from a re-analysis of the deposited data

How the results depend on the processing

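Of 81 results (9 genes in 9 comparisons) 20 passed, and 8 of these kept their call in every alternative run: Ccnd1, Ccnd2 and Ccne1 at E9.5 against E7.75 epiblast, Ccnd1 and Ccne1 in all PGC against epiblast, Ccnd3 in male and female E15.5 PGC against E12.5, and Ccnd1 in female E15.5 PGC against E12.5. Of those that did not pass, 48 never did. With the compared libraries alone, which leaves few residual degrees of freedom, the lines that passed numbered 9, 2204, 0, 56, 0, 333, 1006 and 0 in the 8 pairwise comparisons in order of age and then by sex, against 40, 4108, 4443, 1069, 1072, 1297, 2741 and 1439. Of the 9 genes, 0 then passed at E10.5 against E9.5, at E11.5 against E10.5 and between the sexes, 1 in male and 2 in female E15.5 PGC against E12.5. At E11.5 against E10.5, 0 of the 9 passed with a pseudocount of 0.1 or without the filter. With quantile normalization 1 passed at E12.5 against E11.5. Without the E9.5 libraries, a check added after the values were seen, 6 were lower in all PGC. In that fit 8725 of all 14865 lines passed in either direction. The share of lower lines is not given, so nothing is read from the count of 6. The cause of the changes between settings was not tested.

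Leaving out each library in turn gave 16 to 50 lines at E7.75 against E7.25, 3361 to 4376 at E9.5, 3475 to 4434 at E10.5, 353 to 1360 at E11.5, 251 to 1305 at E12.5, 525 to 1507 in male and 1475 to 3033 in female E15.5 PGC, 672 to 1679 between the sexes and 7754 to 8441 in all PGC. Of the 9 genes it gave 0 to 3 at E11.5, 1 to 3 in male and 2 to 5 in female E15.5 PGC, 2 to 4 between the sexes and at E10.5, and 3 to 4 at E9.5 and in all PGC. Quantile normalization turned the direction of Cdk4 (-0.49) and of Skp1 (-0.68) at E10.5 against E9.5 and of Pcna in all PGC (0.16), and leaving out E10.5 and E11.5 that of Rbx1 in all PGC (-0.31). It also moved the share of higher lines among those that passed to 51.7% against 38.5% at E10.5, with the median of all lines at 0.03 against -0.16, and to 48.3% against 59% at E9.5. Replicate numbers did not pair the libraries (correlations of deviations -0.133 to 0.058). With the replicate block Cdk6 passed at E9.5 against E7.75 (1.32, limma adjusted p = 0.0173) and Cdkn1a in female E15.5 PGC against E12.5 (1.89, limma adjusted p = 0.0402), and no other call of the 9 genes changed. Relative depth, itself an estimate, was lowest at E10.5 and E11.5.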
